A study of Homo sapiens with 16 samples.

Results

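The genes described here handle cobalamin (vitamin B12) inside the cell or use it in methionine synthesis and propionate breakdown. They were chosen by symbol: TCN2, CD320, LMBRD1, ABCD4, MMACHC, MMADHC, MTR, MTRR, MMAA and MMAB, which are 10 of the 60676 genes counted. RNA was sequenced from the human melanoma cell lines A101D, described as methionine dependent, and MeWo, described as methionine independent, with 8 libraries per line numbered as replicates 1 to 8. Per the growth protocol, control medium held 200 µM methionine, and test medium held 200 µM homocysteine in place of methionine, with cystine at 150 µM. No label says which library had which medium, nor what separates replicates 1 to 4 from replicates 5 to 8, so medium, culture and any batch cannot be told apart in the spread within a line. Each group is a single cell line, no other line was profiled here, and the difference between the lines and methionine dependence cannot be told apart.

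Cobalamin travels in blood bound to transcobalamin, enters cells through the CD320 receptor and leaves the lysosome through LMBRD1 and ABCD4. In the cytosol MMACHC strips its upper ligand and MMADHC directs it either to methionine synthase, which remethylates homocysteine to methionine, or to mitochondrial methylmalonyl-CoA mutase. Loss of MMACHC, MMADHC, MTR or MTRR function is known to cause inherited homocystinuria, and cells can use homocysteine in place of methionine through this route or through betaine-dependent enzymes.

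Total counts ran from 28910881 to 38961862 per A101D library and from 31217443 to 38722489 per MeWo library. All 7 melanocyte lineage markers examined (MITF, SOX10, PMEL, MLANA, TYR, DCT and S100B) were at 1 CPM (counts divided by the scaled library size, in parts per 1e6) or more in all libraries of both lines. They summed to 2456 to 3510 CPM per A101D library and 7997 to 9243 CPM per MeWo library. TYR was near 1 CPM in A101D, at 1.13 to 1.72 CPM per library, against 276 to 326 CPM in MeWo. Of the fibroblast markers, 2 of 4 in A101D and 3 of 4 in MeWo reached 1 CPM in every library, with sums of 8.47 to 12.5 and 73.7 to 84.6 CPM. Neither keratinocyte marker did so in either line (sums of 0.413 to 2.20 and 0.0250 to 0.259 CPM). Of the immune markers, 1 of 3 did in A101D and 0 of 3 in MeWo (2.72 to 3.45 and 0.496 to 0.874 CPM), and of the endothelial markers, 1 of 2 and 0 of 2 (3.31 to 18.1 and 0.936 to 1.74 CPM). No marker was at 0 in all libraries of a line. The melanocyte and fibroblast sums were thus higher in MeWo, mostly through PMEL (mean of 6643 CPM against 222 in A101D) and LUM (73.9 against 1.69 CPM). DCT (504 against 1501 CPM), S100B (131 against 612) and PDGFRB (0.306 against 7.63) were lower in MeWo. The part of these markers in the differences between the lines was not tested.

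All 10 genes were detected in every library, and all 10 passed the filter on low counts. Levels of different genes were compared per kilobase of exon, with all annotated exons of a gene joined. These lengths can exceed that of the transcript expressed, and the order of the genes depends on them. In A101D, MMADHC (mean of 57.5 CPM per kb ± 13, SD, n = 8) and CD320 (44.6 ± 2.39) were the most abundant transcripts and their ranges overlapped. MTR (12.9 ± 2.22) and MTRR (12.5 ± 0.802) followed and also overlapped. MMAB (3.95 ± 1.39) overlapped ABCD4 (3.34 ± 0.246), and below them TCN2 (2.61 ± 0.196), LMBRD1 (1.69 ± 0.217), MMAA (0.833 ± 0.269) and MMACHC (0.422 ± 0.0354) were each separated from the gene above. MMACHC was thus the least abundant of the 10 in A101D. In MeWo, CD320 (48.7 ± 3.53 CPM per kb) and MMADHC (48.1 ± 3.47) overlapped at the top, and MTRR (12.8 ± 0.682) lay above MTR (9.83 ± 0.343) with no overlap. Before division by length (11374 bases for MTR and 6498 for MTRR), MTR was the higher of these 2 in MeWo (means of 112 and 83.3 CPM). ABCD4 (4.94 ± 0.169) overlapped LMBRD1 (4.55 ± 0.216), and MMACHC (3.26 ± 0.295) was in the 7th place, above MMAB (2.48 ± 0.136), TCN2 (1.60 ± 0.182) and MMAA (0.285 ± 0.0613).

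Between the lines, MMACHC, LMBRD1, ABCD4 and, by a small margin, CD320 were higher in MeWo, and TCN2, MTR, MMAA and MMAB were lower, MTR not with upper-quartile factors over all genes with a count (log2 fold change 0.12). MMACHC differed most, at 7.65 times the A101D level. The test was limma with voom weights over 19247 genes, with Benjamini-Hochberg adjustment and a threshold of 0.05. It called 8 of the 10 genes, 4 higher and 4 lower, and it called 78.7% of all genes tested (38.2% higher and 40.5% lower), so a share of 8 in 10 is near the background. The median log2 fold change was -0.10 over the 10 genes and -0.02 over all genes tested. For 6 of the 10 genes no MeWo library fell among the A101D libraries, against 56.8% of all genes; the 4 that overlapped were MTRR, MMADHC, CD320 and MMAB. With upper-quartile factors over all genes with a count, the median of all genes moved to 0.48 and 69.4% of calls were higher in MeWo, against 48.5% with the TMM factors used throughout. The median and this share were -0.02 and 48.7% with median-of-ratios factors and -0.04 and 48.3% with total counts. They were -0.02 and 49.3% with upper-quartile factors over the tested genes. All p-values here measure the spread between these libraries, which are not stated to come from separate cultures.

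**Figure D1:**
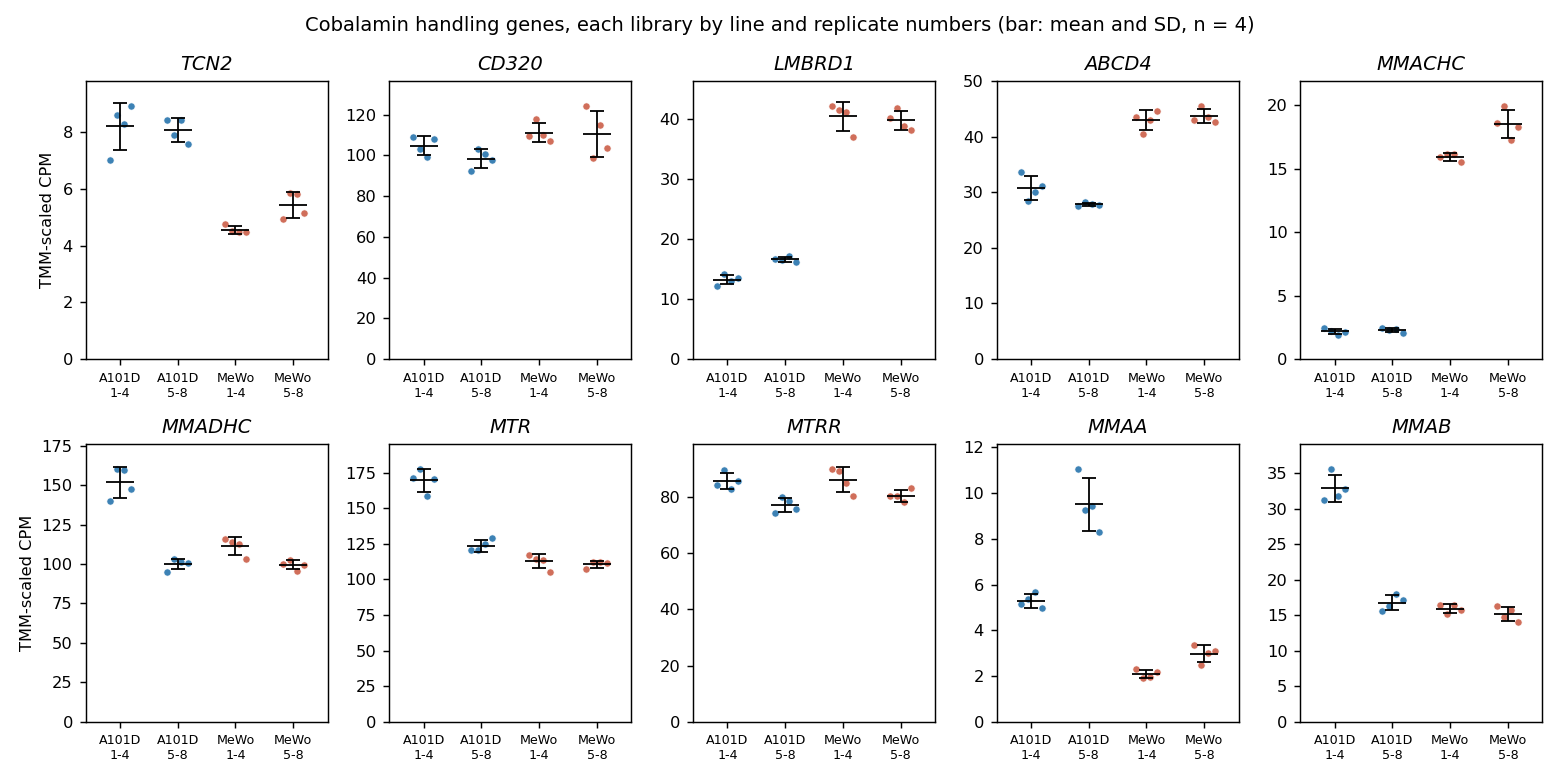
TMM-scaled CPM (linear axes from 0) of the 10 genes in each library, by line and replicate numbers (A101D blue, MeWo red); horizontal bars and whiskers are the mean and SD of 4 libraries. MMACHC lies between 1.93 and 2.46 CPM in A101D and between 15.5 and 19.9 CPM in MeWo, while MTR, MMADHC and MMAB are high in A101D replicates 1 to 4 alone.

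TCN2 (chromosome 22, 30606838 to 30627278, GRCh38) encodes transcobalamin, the carrier that delivers cobalamin to cells. Its lowest, median and highest levels were 7.03, 8.35 and 8.91 CPM in A101D and 4.47, 4.85 and 5.84 CPM in MeWo. Every MeWo library was below every A101D library. The log2 fold change was -0.70 ± 0.07 (SE), or 1.62-fold lower in MeWo (limma, adjusted p = 1.28e-07).

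CD320 (chromosome 19, 8302127 to 8308356), the receptor for transcobalamin, was at 92.3, 102 and 109 CPM in A101D (lowest, median, highest) and at 99.0, 110 and 124 CPM in MeWo. The ranges overlapped and the difference was small, with a log2 fold change of 0.12 ± 0.05 (limma, adjusted p = 0.0294). Without MeWo replicate 2 the adjusted p was 0.0588, with no low-count filter it was 0.0622, and within replicates 1 to 4 alone it was 0.132.

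LMBRD1 (chromosome 6, 69675793 to 69867236) and ABCD4 (chromosome 14, 74285423 to 74303056) encode the pair of membrane proteins needed to export cobalamin from the lysosome. LMBRD1 was at 12.2, 15.1 and 17.2 CPM in A101D and at 36.9, 40.6 and 42.0 CPM in MeWo, with no overlap. It rose by a log2 fold change of 1.43 ± 0.07, or 2.7-fold (limma, adjusted p = 1.65e-12). ABCD4 was at 27.6, 28.4 and 33.7 CPM in A101D and at 40.5, 43.3 and 45.5 CPM in MeWo, again with no overlap. Its log2 fold change was 0.57 ± 0.05, or 1.48-fold (limma, adjusted p = 2.97e-09). Both genes were therefore higher in MeWo.

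MMACHC (chromosome 1, 45500053 to 45513382, plus strand) encodes the cytosolic chaperone that receives cobalamin from the lysosome and removes its upper ligand. In A101D replicates 1 to 4 it was at 2.46, 2.19, 1.93 and 2.14 CPM, and in replicates 5 to 8 at 2.43, 2.29, 2.38 and 2.08 CPM. In MeWo replicates 1 to 4 it was at 15.9, 16.2, 16.2 and 15.5 CPM, and in replicates 5 to 8 at 18.6, 19.9, 17.3 and 18.3 CPM. The 8 MeWo libraries formed a narrow band far above the 8 A101D libraries, at 499 to 729 counts per library against 53 to 91. The log2 fold change was 2.94 ± 0.08 (limma, adjusted p = 7.32e-16), and 578 of the 19247 genes tested (3%) had a log2 fold change at least as high. Within replicates 1 to 4 it was 2.86 ± 0.11, and within replicates 5 to 8 it was 3.01 ± 0.10.

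The neighbourhood of MMACHC holds PRDX1, which encodes a peroxiredoxin, on the opposite strand at its 3′ end, CCDC163 on the opposite strand at its 5′ end, and TESK2, a protein kinase gene, farther upstream. CCDC163 (45493866 to 45500079) had 23 to 43 counts per MeWo library and 3 to 11 per A101D library (0.637 to 1.26 and 0.0811 to 0.330 CPM), with no overlap. It reached the low-count filter in all 8 MeWo libraries and in 2 of the 8 A101D libraries, so it entered the fit through the line where it is high, and no test is given for it. PRDX1 (45511036 to 45523047) had 206 to 334 CPM per A101D library and 215 to 266 CPM per MeWo library, with a log2 fold change of -0.15 ± 0.11 (adjusted p = 0.201). TESK2 (45343883 to 45491166) had 7.47 to 10.2 CPM per A101D library and 6.42 to 10.3 CPM per MeWo library, with a log2 fold change of 0.08 ± 0.10 (adjusted p = 0.486). Within replicates 1 to 4, PRDX1 was lower in MeWo by a log2 fold change of -0.32 ± 0.04 (limma, adjusted p = 7.41e-10) and TESK2 by -0.20 ± 0.09 (adjusted p = 0.0430). Within replicates 5 to 8, PRDX1 was at 0.02 ± 0.04 (adjusted p = 0.721) and TESK2 was higher by 0.34 ± 0.08 (limma, adjusted p = 0.000269). MMACHC shares 379 exon bases (7.16% of its exons) with PRDX1 and 27 with CCDC163 in GENCODE v29, and since the strand setting of the counting is not given in the sources used here, reads in these bases cannot be told apart.

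**Figure D2:**
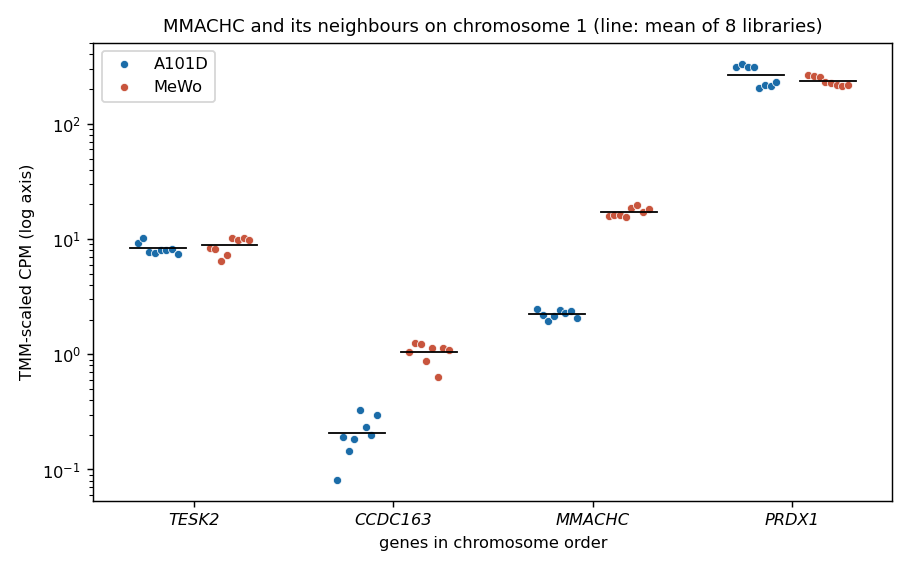
TMM-scaled CPM on a log axis for TESK2, CCDC163, MMACHC and PRDX1 in the order of their positions, with 8 A101D libraries (blue) and 8 MeWo libraries (red) per gene and a line at each mean. The lines separate for CCDC163 and MMACHC, and overlap for TESK2 and PRDX1.

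The RefSeq promoter table (GRCh38.p14) held 8 of the 10 genes, without TCN2 and MTRR. The 250 bases before each start site were searched on both strands. The RefSeq start sites of MMACHC (45500300) and of CCDC163 on the other strand (45500073) lie 227 bases apart. None of the 8 genes held ACTACAATT, the core of a motif known for ZNF143 and THAP11, which 0.319% of 35116 promoters held. A looser pattern, ACTACNNNTCCCA (N is any base), was chosen after these sequences were seen. It starts with the same ACTAC but need not hold that core. It was in 1.57% of promoters and, of the 8 genes, in those of MMACHC and MTR. These are shown because both hold that pattern, with the match in capitals, 5′ to 3′ on the plus strand. The MMACHC stretch is the 30 bases at chr1:45500169-45500198, and the match starts 123 bases before the RefSeq start site. GENCODE v29 starts MMACHC farther upstream, at 45500053. All 250 bases searched lie in UTRs annotated there, counted over any gene on either strand. CCDC163, on the other strand, reaches to 45500079. The MTR stretch is the 250 bases at chr1:236795031-236795280, and the match starts 130 bases before the start site, with 0 of the 250 bases in a GENCODE UTR.
MMACHC: ggaaacgaACTACGCATCCCAagatgcatc
MTR: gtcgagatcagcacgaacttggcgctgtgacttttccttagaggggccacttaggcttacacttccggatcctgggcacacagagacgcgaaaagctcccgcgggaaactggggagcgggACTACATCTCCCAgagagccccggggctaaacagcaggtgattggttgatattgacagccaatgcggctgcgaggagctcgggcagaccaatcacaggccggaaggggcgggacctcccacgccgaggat
The match is a description of letters, not a measured site. The shorter motif CCAAT was present 5 times before MMAB, 3 times before MTR and once each before MMACHC and MMADHC, and 32.0% of promoters held it at least once. CpG dinucleotides numbered 13 to 29 in the 8 genes, against a median of 11 over all promoters. The 29 is MMAA alone, and 85.9% of promoters held fewer. The others had 13 to 18, where 53.4% to 63.2% of promoters held fewer.

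HCFC1, THAP11 and ZNF143 encode factors known to act together on the MMACHC promoter. Of these 3, THAP11 was called higher in MeWo, 1 of 3 against 78.7% of all genes (log2 fold change 0.34 ± 0.05, limma, adjusted p = 3.45e-06), while HCFC1 was at -0.12 ± 0.12 (adjusted p = 0.394) and ZNF143 at -0.03 ± 0.05 (adjusted p = 0.569). Within replicates 1 to 4, 2 of the 3 were called, against 79.1% of all genes. THAP11 was higher (0.37 ± 0.05), HCFC1 lower (-0.32 ± 0.05, limma, adjusted p = 5.40e-08) and ZNF143 at 0.05 ± 0.05. Within replicates 5 to 8, 2 of the 3 were called, against 84.1%. THAP11 was higher (0.30 ± 0.05), ZNF143 lower (-0.12 ± 0.05, limma, adjusted p = 0.0311) and HCFC1 at 0.08 ± 0.05. These 3 regulators were named after their values were seen, as were PCCA, MCEE, MMUT and ABCC1 below.

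MMADHC (chromosome 2, 149569634 to 149587816) encodes the adaptor that sends cobalamin to the cytosolic or the mitochondrial enzyme. It was at 140, 160, 160 and 147 CPM in A101D replicates 1 to 4 and at 95.2, 103, 101.2 and 100.5 CPM in replicates 5 to 8. In MeWo it was at 116, 114, 112 and 103 CPM in replicates 1 to 4 and at 99.7, 103, 95.8 and 99.5 CPM in replicates 5 to 8. Only A101D replicates 1 to 4 stood above the other 12 libraries. Over all 16 libraries the log2 fold change of -0.23 ± 0.11 did not pass (limma, adjusted p = 0.0774), and it was 0.27 with upper-quartile factors over all genes with a count. It passed with total counts as the scale (limma, adjusted p = 0.0164) and when the difference was averaged over both replicate sets (8.92e-09). Within replicates 1 to 4 MMADHC was lower in MeWo by a log2 fold change of -0.44 ± 0.04 (limma, adjusted p = 1.25e-12), a difference of 0.05 with those factors, whereas within replicates 5 to 8 it was at -0.01 ± 0.04 (adjusted p = 0.858), or 0.48 with those factors.

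MTR (chromosome 1, 236795281 to 236903981, plus strand) encodes methionine synthase, the cobalamin-dependent enzyme that turns homocysteine into methionine. It was at 171, 178, 159 and 171 CPM in A101D replicates 1 to 4 and at 121, 120, 125 and 129 CPM in replicates 5 to 8. The MeWo levels were 118, 115, 114 and 105 CPM in replicates 1 to 4 and 107, 112, 112 and 111 CPM in replicates 5 to 8. All A101D libraries lay above all MeWo libraries, narrowly so for A101D replicates 5 to 8. MTR was 1.30-fold lower in MeWo, with a log2 fold change of -0.37 ± 0.09 (limma, adjusted p = 0.000718), but 0.12 with upper-quartile factors over all genes with a count. Within replicates 1 to 4 the log2 fold change was -0.59 ± 0.04 (limma, adjusted p = 1.86e-17), or -0.09 with the upper-quartile factors, where it did not pass (adjusted p = 0.0868). Within replicates 5 to 8 it was -0.16 ± 0.04 (limma, adjusted p = 0.000405), or 0.33 with the upper-quartile factors.

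MTRR (chromosome 5, 7851186 to 7906025) encodes the reductase that reactivates methionine synthase. It was at 74.3, 81.4 and 89.7 CPM in A101D (lowest, median, highest) and at 78.0, 81.7 and 89.9 CPM in MeWo, and the ranges lay over each other. The log2 fold change of 0.03 ± 0.05 did not pass (limma, adjusted p = 0.509), and the lines differed by less than the spread between libraries.

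Ratios of counts within a library do not depend on the scaling between libraries. The log2 ratio of MTR to MTRR counts was 0.83 ± 0.17 (SD, n = 8) in A101D and 0.43 ± 0.05 (n = 8) in MeWo, with ranges of 0.59 to 1.02 and 0.36 to 0.52 that did not overlap. The difference was -0.41 (exact permutation test over 12870 splits, two-sided, p = 0.000155, adjusted p = 0.000155 over 2 ratios), the smallest p these groups can give. It was -0.60 within replicates 1 to 4 and -0.22 within replicates 5 to 8 (exact permutation p = 0.0286 in each, the smallest that 4 against 4 can give). MMACHC counts per 100 MMADHC counts ran from 1.22 to 1.77 over A101D replicates 1 to 4 and from 2.08 to 2.57 over A101D replicates 5 to 8. In MeWo they were 13.8 to 15.1 and 18.1 to 19.4. The log2 ratio of MMACHC to MMADHC was higher in MeWo by 3.16 (exact permutation test, two-sided, p = 0.000155, adjusted p = 0.000155 over 2 ratios), by 3.32 within replicates 1 to 4 and by 3.01 within replicates 5 to 8.

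**Figure D3:**
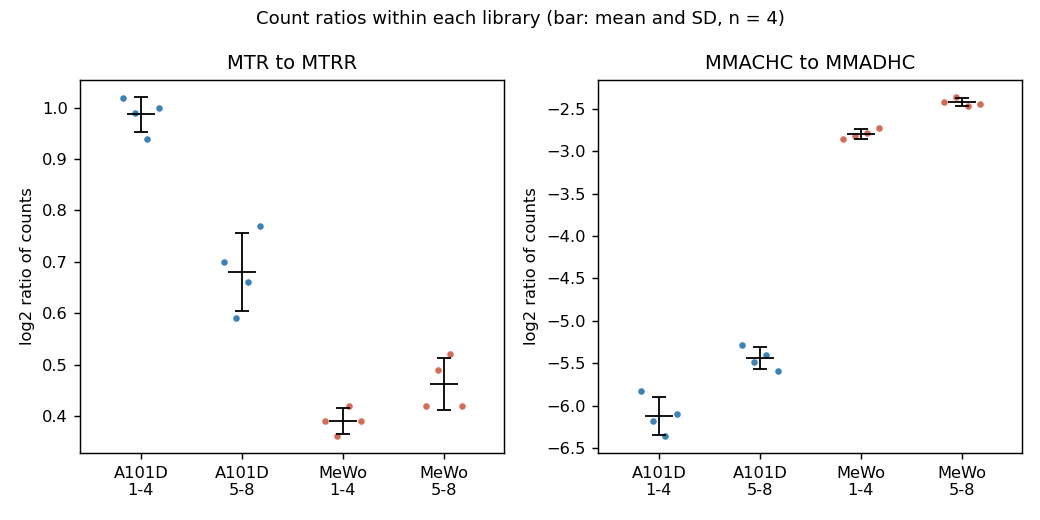
Log2 ratio of counts of MTR to MTRR (left) and MMACHC to MMADHC (right) in each library, by line and replicate numbers, with the mean and SD of 4 libraries; the axes do not start at 0. MTR to MTRR is highest in A101D replicates 1 to 4 (0.94 to 1.02), and MMACHC to MMADHC is between -6.36 and -5.28 in A101D and between -2.86 and -2.36 in MeWo.

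MMAA (chromosome 4, 145599042 to 145660035) and MMAB (chromosome 12, 109553737 to 109573874) serve the mitochondrial branch: MMAB makes adenosylcobalamin and MMAA helps load it onto methylmalonyl-CoA mutase. MMAA was at 5.13, 5.37, 5.67 and 4.97 CPM in A101D replicates 1 to 4 and at 11.1, 9.26, 9.45 and 8.28 CPM in replicates 5 to 8. In MeWo it was at 2.31, 1.91, 1.97 and 2.16 CPM, then at 3.34, 2.49, 3.02 and 3.08 CPM. All MeWo libraries were below all A101D libraries, and MMAA was 2.84-fold lower in MeWo, with a log2 fold change of -1.51 ± 0.20 (limma, adjusted p = 2.39e-06).

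MMAB was at 31.3, 35.6, 31.9 and 32.8 CPM in A101D replicates 1 to 4 and at 15.6, 16.3, 18 and 17.1 CPM in replicates 5 to 8. MeWo was at 16.5, 15.2, 16.4 and 15.8 CPM in replicates 1 to 4, and at 16.2, 14.8, 15.7 and 14.1 CPM in replicates 5 to 8. A101D replicates 5 to 8 thus overlapped MeWo, while A101D replicates 1 to 4 stood apart. The log2 fold change over all libraries was -0.58 ± 0.18 (limma, adjusted p = 0.00773), and -0.09 with upper-quartile factors over all genes with a count (adjusted p = 0.678). It was -1.04 ± 0.06 within replicates 1 to 4 (limma, adjusted p = 2.65e-20). Within replicates 5 to 8 it was -0.15 ± 0.06 (limma, adjusted p = 0.0287), but 0.34 with upper-quartile factors over all genes with a count. Leaving out MeWo replicate 8 gave an adjusted p of 0.141 there, MeWo replicate 6 gave 0.0643, A101D replicate 7 gave 0.121 and A101D replicate 8 gave 0.0610.

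**Figure D4:**
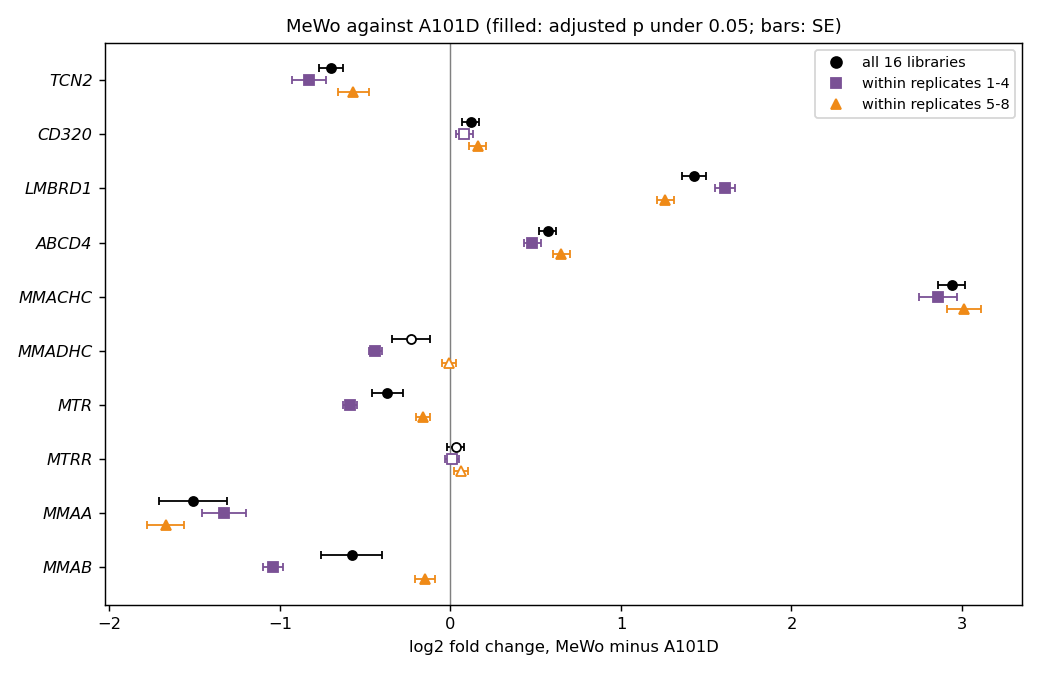
Log2 fold change of MeWo against A101D with its SE for each gene, over all 16 libraries (black circles), within replicates 1 to 4 (purple squares) and within replicates 5 to 8 (orange triangles); filled symbols have an adjusted p under 0.05. MMACHC is between 2.86 and 3.01 in all 3, MMAB moves from -1.04 to -0.15, and MTR and MMADHC over all libraries turn to 0.12 and 0.27 with upper-quartile factors over all genes with a count, as do MMADHC within replicates 1 to 4 (0.05) and MTR (0.33), MMADHC (0.48) and MMAB (0.34) within replicates 5 to 8.

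Within replicates 1 to 4 the fit called 8 of the 10 genes, 3 higher and 5 lower in MeWo, where 79.1% of 21569 genes tested were called. Within replicates 5 to 8 it called 8 of the 10, 4 higher and 4 lower, where 84.1% were called. LMBRD1, ABCD4 and MMACHC were higher, and TCN2, MTR, MMAA and MMAB lower, in both, except that MTR and MMAB were at 0.33 and 0.34 within replicates 5 to 8 with upper-quartile factors over all genes with a count; TCN2 did not pass there with those factors (adjusted p = 0.425). With the same factors, the share of calls that were higher went from 45.3% to 66.8% in the first and from 48.2% to 65.2% in the second.

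Genes around this pathway were described from lists. Of the 4 genes that take propionate to succinyl-CoA, 3 were called between the lines, against 78.7% of all genes tested. PCCB, a subunit of propionyl-CoA carboxylase, was lower in MeWo, at 19.6 to 23.0 CPM against 39.9 to 66.6 CPM in A101D (log2 fold change -1.31 ± 0.12, limma, adjusted p = 1.44e-08). MCEE, the epimerase, was lower (-0.66 ± 0.15), PCCA, the other carboxylase subunit, was higher (0.63 ± 0.05), and MMUT, the mutase itself, was at -0.07 ± 0.07 (limma, adjusted p = 0.333). The list's median was -0.36. Within replicates 1 to 4 all 4 were called, against 79.1% of all genes. MMUT was then lower (-0.21 ± 0.05, limma, adjusted p = 0.000368) and MCEE was at -1.06 ± 0.11. Within replicates 5 to 8, 3 of the 4 were called, against 84.1%. MMUT was at 0.06 ± 0.05 there (limma, adjusted p = 0.303) and MCEE at -0.29 ± 0.11. PCCB was lower and PCCA higher in both.

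Of 6 other genes for cobalamin binding, uptake or export, 5 passed the low-count filter. LRP2 passed it through A101D alone, so no test is given for it. The other 4 (AMN, TCN1 and ABCC1 higher in MeWo, CUBN lower) were called, against 78.7% of all genes tested. LRP2 (megalin) and CUBN (cubilin) encode endocytic receptors that take up transcobalamin or intrinsic factor in kidney and gut. LRP2 was at 63.5 to 100 CPM in the A101D libraries and at 0 to 5 counts per MeWo library. CUBN had 84.9 to 116 CPM per A101D library and 4.85 to 5.94 CPM per MeWo library, 18.2-fold lower (log2 fold change -4.19 ± 0.10, limma, adjusted p = 1.95e-16). AMN, the partner of cubilin, was nearly undetected in both lines, at 1 to 13 and 7 to 23 counts per library, with a log2 fold change of 1.28 ± 0.42 (limma, adjusted p = 0.010); within replicates 1 to 4 it was 0.43 ± 0.39 and did not pass (adjusted p = 0.310). TCN1 (haptocorrin), another cobalamin binder, ran from 5.67 to 13 CPM over the A101D libraries and from 14.7 to 21.1 CPM over the MeWo libraries (log2 fold change 1.03 ± 0.17, limma, adjusted p = 3.07e-05). ABCC1, a cobalamin exporter, was higher by 0.98 ± 0.05. CBLIF (intrinsic factor) had 0 to 6 counts per library and was not tested. The betaine-dependent remethylation enzymes BHMT and BHMT2 had 0 to 3 and 0 to 7 counts per library and were not tested either.

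The replicate numbers split the A101D libraries. Between replicates 5 to 8 and replicates 1 to 4 of A101D, MTR, MTRR, MMADHC, ABCD4 and MMAB were lower in the higher-numbered libraries, and LMBRD1 and MMAA were higher; MTRR and ABCD4 were at 0.01 with total counts as the scale. This was 7 of the 10 genes, against 65.3% of 21569 genes tested (29.6% higher and 35.8% lower), and the median was -0.12 over the 10 and -0.05 over all genes. The libraries did not overlap for 7 of the 10, against 59.9% of all genes. With total counts as the scale, the median of all genes moved to 0.11 and the share of calls that were higher went from 45.2% to 59.5%; it was 56.8% with upper-quartile factors over the tested genes. What sets these libraries apart is not labelled, and the split was proposed with results of these data known, so its p-values are not independent evidence. Marker levels moved with the split in A101D: from replicates 1 to 4 to replicates 5 to 8 the melanocyte sum went from 2931 to 3510 CPM down to 2456 to 2689 CPM, with mean MITF at 221 and then 146 CPM and MLANA at 30.2 and then 17.4 CPM. Mean DCT (1692 and then 1311 CPM), S100B (698 and 527) and SOX10 (398 and 361) also fell. PMEL (209 and then 235 CPM) and TYR (1.42 and 1.62) rose. The fibroblast sum went from 9.89 to 12.5 CPM down to 8.47 to 9.65 CPM, through PDGFRB (mean of 8.93 and then 6.33 CPM). Mean LUM (1.33 and then 2.05 CPM), COL1A1 (0.727 and 0.837) and DCN (0.00763 and 0.107) rose. The endothelial sum went from 3.31 to 4.55 CPM up to 14.2 to 18.1 CPM, through VWF, the keratinocyte sum from 0.413 to 0.885 CPM up to 1.59 to 2.20 CPM, through KRT14, and the immune sum from 2.72 to 2.93 CPM up to 3.24 to 3.45 CPM. Their part in the results was not tested.

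MMAB fell most in A101D, by 0.97 ± 0.06 on the log2 scale (limma, adjusted p = 2.53e-19), from the 31.3 to 35.6 CPM of replicates 1 to 4 to the 15.6 to 18 CPM of replicates 5 to 8. MMADHC fell by 0.60 ± 0.04 (limma, adjusted p = 2.58e-16) and MTR by 0.46 ± 0.04 (limma, adjusted p = 1.01e-13). MMAA rose by 0.84 ± 0.09 (limma, adjusted p = 8.70e-11), so the mitochondrial pair went opposite ways. LMBRD1 was at 12.2, 14.1, 13 and 13.5 CPM in replicates 1 to 4 and at 16.6, 16.5, 17.2 and 16.1 CPM in replicates 5 to 8, a rise of 0.33 ± 0.07 (limma, adjusted p = 1.87e-05).

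MTRR and ABCD4 fell less in A101D, by 0.15 ± 0.04 and by 0.15 ± 0.05 (limma, adjusted p = 0.00161 and 0.00991), and neither passed with median-of-ratios factors (adjusted p = 0.126 and 0.203) or with total counts, where both were at 0.01. The MTRR call was also lost without A101D replicate 2 (adjusted p = 0.101) and the ABCD4 call without A101D replicate 1 (adjusted p = 0.0962). MMACHC (0.06 ± 0.14, adjusted p = 0.707), TCN2 (-0.01 ± 0.08, adjusted p = 0.905) and CD320 (-0.09 ± 0.05, adjusted p = 0.115) did not pass.

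In MeWo the same split called 3 of the 10 genes, against 13.1% of 21569 genes (4.59% higher and 8.51% lower), with a median of -0.02 over the 10 and over all genes. Libraries did not overlap for 4 of the 10 (MMACHC, MMADHC, TCN2 and MMAA), against 14.3% of all genes. MMACHC rose by 0.21 ± 0.06 on the log2 scale (limma, adjusted p = 0.00857), with an adjusted p of 0.0582 without MeWo replicate 6. MMAA rose by 0.50 ± 0.14 (limma, adjusted p = 0.0147), with 0.0558 without MeWo replicate 2. MMADHC fell by 0.16 ± 0.04 (limma, adjusted p = 0.00888), with 0.0526 without MeWo replicate 1 and 0.0593 with total counts as the scale. MMACHC did not pass under limma-trend (adjusted p = 0.105), and with no low-count filter MMADHC alone was called. TCN2 was at 4.77, 4.53, 4.48 and 4.47 CPM in replicates 1 to 4 and at 4.93, 5.84, 5.83 and 5.16 CPM in replicates 5 to 8, and its difference of 0.25 ± 0.10 did not pass (adjusted p = 0.0997). Of the calls over all genes, 35.0% were higher, a share that was 18.9% with upper-quartile factors over all genes with a count, 66.3% with total counts and 51.6% with upper-quartile factors over the tested genes.

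**Figure D5:**
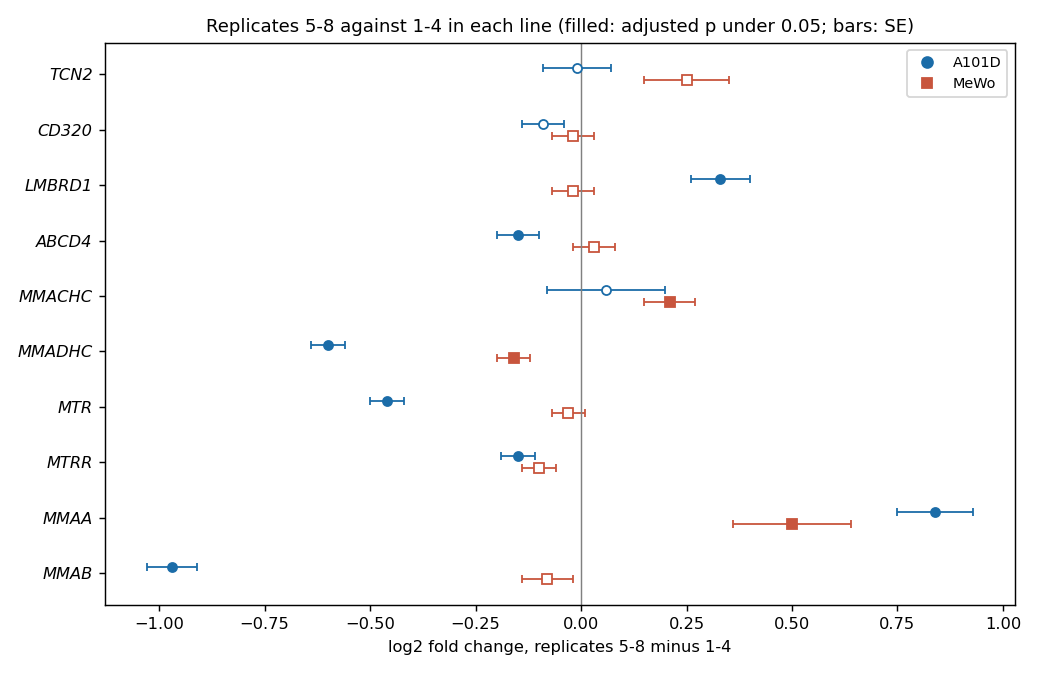
Log2 fold change of replicates 5 to 8 against replicates 1 to 4 with its SE, in A101D (blue circles) and MeWo (red squares); filled symbols have an adjusted p under 0.05. MMAB is at -0.97 in A101D and -0.08 in MeWo, while MMAA is above 0 in both; MTRR and ABCD4 in A101D, drawn at -0.15 each, are at 0.01 with total counts as the scale.

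The difference between the replicate sets was itself compared between the lines. It was called for 5 of the 10 genes, against 48.5% of 21569 genes (27.6% higher and 20.8% lower), with a median of 0.16 over the 10 and 0.06 over all genes. MMAB differed by 0.89 ± 0.09 on the log2 scale (limma, adjusted p = 5.46e-12), since it was 1.96-fold lower in A101D replicates 5 to 8 and at -0.08 ± 0.06 in MeWo. MMADHC differed by 0.44 ± 0.06 (adjusted p = 7.32e-08) and MTR by 0.43 ± 0.06 (adjusted p = 1.90e-08). LMBRD1 differed by -0.36 ± 0.08 (adjusted p = 0.000253). ABCD4 differed by 0.17 ± 0.07 (limma, adjusted p = 0.0331), a call lost without any of A101D replicates 1, 4, 5 and 7 or MeWo replicates 2 and 6 (adjusted p of 0.0506 to 0.134) and with each other scaling (0.0561 to 0.444). MMAA, at -0.34 ± 0.17, did not pass (limma, adjusted p = 0.0961; 0.0340 with total counts), nor did MMACHC, at 0.15 ± 0.15 (adjusted p = 0.424). The share of calls that were higher was 57.0%, 45.8% with total counts and 46.5% with upper-quartile factors over the tested genes.

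The list genes split along the same numbers. In A101D, PCCB (-0.58 ± 0.04), MCEE (-0.64 ± 0.10) and MMUT (-0.31 ± 0.05) were lower in replicates 5 to 8 by log2 fold change, 3 of the 4 propionate genes against 65.3% of all genes, and in MeWo only PCCB was called (-0.17 ± 0.05), 1 of 4 against 13.1%. Of the 5 other cobalamin genes tested, 4 were called in A101D, against the same 65.3%: CUBN, LRP2 and AMN lower, and TCN1 higher by 1.00 ± 0.09. The AMN call rests on 1 to 13 counts per A101D library, and AMN reached the low-count filter in 3 of the 8. In MeWo 1 of the 5 was called, against 13.1% of all genes: ABCC1, at -0.21 ± 0.04. LRP2 is among these 5 but reached the filter in 0 MeWo libraries (0 to 5 counts), so its lack of a call there says nothing. Of the 3 regulators, 1 was called in A101D, against 65.3% of all genes, and 2 in MeWo, against 13.1%. HCFC1 was lower in replicates 5 to 8 of both lines, by -0.63 ± 0.05 in A101D and -0.23 ± 0.05 in MeWo. ZNF143 was called lower in MeWo (-0.21 ± 0.05) but not in A101D (-0.04 ± 0.05). THAP11 was called in neither (-0.01 ± 0.05 in A101D and -0.09 ± 0.05 in MeWo). Next to MMACHC, PRDX1 was lower in both lines (-0.55 ± 0.04 and -0.21 ± 0.04), and TESK2 was higher in MeWo replicates 5 to 8 (0.41 ± 0.09). MMACHC itself stood at 0.06 ± 0.14 and 0.21 ± 0.06.

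After the mean of each line was subtracted, the protein-coding genes with the pattern most like MTR over the 16 libraries, among 9849 genes at 10 CPM or more, were LYST (Pearson r = 0.988), HDAC1 (0.987) and SESN3 (0.987). For MMACHC they were KLHL24 (0.805), BEST1 (0.787) and ZNF862 (0.778). The libraries share their lines and replicate sets, so these are descriptions over 4 groups of 4 libraries more than over 16 independent points.

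Other members also share exon bases with other annotated genes. TCN2 shares 246 with PES1, MMAB 306 with MVK, MTRR 100 with FASTKD3 and 305 with C5orf49, and MMADHC 560 (25.6% of its exons) with AC007364.1, all on the opposite strand. ABCD4 shares 624 with AC005519.1 on its own strand. LMBRD1 shares 70 with COL19A1 on the opposite strand. The partner had more counts than the member for TCN2 (PES1 at 5134 to 8991 counts per library, TCN2 at 140 to 307) and for LMBRD1 (COL19A1 at 1577 to 3366, LMBRD1 at 359 to 1524). MVK had 872 to 1557 counts against 468 to 1157 for MMAB. FASTKD3 (493 to 769 counts), C5orf49 (0 to 4), AC007364.1 (4 to 32) and AC005519.1 (22 to 57) had fewer counts than the members they overlap.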

How the data were processed

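Total RNA libraries of A101D and MeWo (8 each) were trimmed with Trimmomatic 0.39-1, aligned with STAR 2.7.1a to GRCh38 and counted over genes with featureCounts 2.0.0, per the submitters' processing notes. The authors deposited whole-number counts per gene, each joined in its cell to an Ensembl identifier; the parts were separated here. The annotation release is not given in the sources used here. All 16 columns were used (0 left out). Of 60676 identifiers, 60357 matched a symbol, and positions and exon lengths came from GENCODE 29.

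Library sizes (28910881 to 38961862) were scaled by TMM factors (trims of 30% and 5%; factors 0.942 to 1.08). Genes reaching 0.298 CPM (10 counts at the median depth) in 8 libraries (4 for the replicate sets) and 15 counts in all were tested with limma 3.58.1 (voom, robust empirical Bayes, R 4.3.3), with Benjamini-Hochberg adjustment over all genes and a threshold of 0.05. The fit across lines used no term for replicate numbers, and its spread includes their differences. The planned quasi-likelihood count test was not run, because the joined cells did not pass as a count column, and limma was the stated fallback. The fit was tested on simulated data. Libraries of a line differed beyond counting noise (chi-square per degree of freedom of 1.86 or more), and none was treated as a duplicate. Ratios used a prior count of 0.5 and exact permutation tests.

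The members, lists and replicate sets were chosen with earlier results of these data known. Named are all 10 members, list genes called between the lines with an absolute log2 fold change over 1, and the neighbours of MMACHC; other names were added after their values were seen. Alternatives were other scalings, low-count filters, limma-trend, a replicate block and libraries left out.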

Additional observations from a re-analysis of the deposited data

Results flagged for a closer look

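The difference between replicates 5 to 8 and replicates 1 to 4 was not the same in the 2 lines for 5 of the 10 genes, by the limma test of that difference itself, which called 48.5% of all genes tested. On the log2 scale, MeWo minus A101D, it was 0.89 for MMAB, 0.44 for MMADHC, 0.43 for MTR, 0.17 for ABCD4 and -0.36 for LMBRD1. MMAB, MMADHC and MTR were lower in A101D replicates 5 to 8 than in A101D replicates 1 to 4, and in MeWo the same genes stood at -0.08, -0.16 and -0.03. No sample label says what the replicate numbers separate, so medium and batch cannot be told apart. No library stood outside its group in any of 60 groups of 4 or 8 libraries checked, where chance would mark about 1 in 20. The check set the gap to the nearest library against the range of the group. Groups of 8 hold the groups of 4 and span both replicate sets. The checks are therefore not independent and can miss an outlying library.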

How the results depend on the processing

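Of 450 values of single genes under an alternative, 384 kept their direction and call, 17 gained a call, 22 lost it and 27 changed sign. MMACHC, LMBRD1 and ABCD4 stayed higher and TCN2 and MMAA lower in MeWo, past the threshold, under every alternative run for the comparison of the lines. The count of genes called between the lines was 7 to 9 across alternatives; with the replicate number as a replicate block it was 8, MMADHC was called (adjusted p = 0.0226) and CD320 was not (0.0599). Whether equal numbers pair libraries across the lines is not labelled. Same-number correlations of deviations from the line mean were 0.0451 to 0.138, and 4 of 16 libraries correlated best with their own number. With the mean of each line and replicate set subtracted, they were -0.0182 to 0.0632, and 5 of 16 libraries did so. Correlations between different lines cannot tell whether libraries with the same number share a culture day or batch. The MeWo replicate-set count, 3, fell to 1 with no low-count filter. Leaving out each library gave 6 to 7 genes for A101D sets, 2 to 4 for MeWo sets, 4 to 6 for the difference between lines, 8 to 8 within replicates 1 to 4 and 7 to 8 within 5 to 8. With upper-quartile factors over all genes with a count, signs changed for MTR (0.12) and MMADHC (0.27) between lines, MMADHC within replicates 1 to 4 (0.05), MTR (0.33), MMADHC (0.48) and MMAB (0.34) within 5 to 8, and ABCD4 by MeWo sets (-0.02). With total counts they changed by A101D sets for MTRR (0.01), ABCD4 (0.01), CD320 (0.07) and TCN2 (0.15), by MeWo sets for MTR (0.03), LMBRD1 (0.03) and CD320 (0.04), between sets and lines for MTRR (-0.05) and CD320 (-0.03), and for MTRR within 5 to 8 (-0.01). With median-of-ratios factors they changed for TCN2 by A101D sets (0.06) and, between sets and lines, MTRR (-0.03) and CD320 (0.00). Upper-quartile factors over tested genes, added after the data were seen, changed CD320 (0.04) and TCN2 (0.12) by A101D sets, MTR, LMBRD1 and CD320 by MeWo sets (0.01 each), and MTRR (-0.05) and CD320 (-0.02) between sets and lines. The cause was not tested. MMACHC in A101D rests on 53 to 91 counts per library and CCDC163 there on 3 to 11.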
